A study of Mus musculus with 6 samples.

Results

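The NR4A orphan nuclear receptors and the CREB and C/EBP transcription factors were followed in mouse cortical bone treated with parathyroid hormone (PTH). The genes were chosen by symbol, and every array probe that carries the symbol *Nr4a1*, *Nr4a2*, *Nr4a3*, *Crem*, *Creb1*, *Atf1*, *Crebbp*, *Cebpb* or *Cebpd* was taken. These were 9 of the 31508 symbols on the array, with 23 of its 45281 probes. The samples were shafts of femur and tibia from C57BL6 mice, with a stated age of 3 months. They were flushed of marrow and digested with collagenase and trypsin to strip the cells from their surfaces. By the authors' account this left tubes with mostly osteocytes in the matrix. Markers of neutrophils, macrophages, osteoclasts, red cells and endothelium were also above background on these arrays. After a night in medium with serum the tubes were kept for 24 hours without PTH (control, 3 arrays) or with 250 nM PTH 1-34 (3 arrays). Each preparation pooled the bones of several mice, and the model is an explant outside the animal. Nothing says which preparations came from separate cultures, so the p-values measure the spread between these arrays, which may be technical. None of these genes passed the test of PTH against control at 24 hours, the only time measured. *Cebpb* was far above background in both groups, and its change lay within an interval of 0.882-fold to 1.33-fold, *Crem* was at 1.37-fold with PTH by its brightest probe, and most of the other genes lay at the array background.

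PTH acts through PTH1R, a receptor coupled to adenylyl cyclase. The cAMP that this enzyme makes activates protein kinase A, which phosphorylates CREB1 and its relatives ATF1 and CREM, factors that bind DNA at cAMP response elements. The phosphorylated factors recruit the coactivator CREBBP, a histone acetyltransferase. Among the genes that this route switches on early are the 3 NR4A receptors, which bind DNA without a known hormone, and the C/EBP factors CEBPB and CEBPD. *Crem* also has an internal promoter that yields ICER, a short repressor which closes the loop. An RNA array measures transcripts and not the phosphorylation by which CREB1 is switched on.

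The cAMP response element is the sequence feature that joins the regulated genes to their regulators. Promoter windows from 250 bases before to 50 bases after the start were read from RefSeq tables of GRCm38.p6 for 7 of the 9 genes, and not for *Crem* and *Cebpd*. The full element, TGACGTCA, was in none of the 7 windows and in 1.79% of all 32851 windows. Its short core of 5 letters, TGACG on one strand and CGTCA on the other, lies within the full element and was in 20.8% of all windows. It occurred 4 times each in the windows of *Nr4a1*, *Nr4a2* and *Nr4a3*, a number reached by 0.231% of all windows, and 3 times in that of *Cebpb*, where 1.03% of windows had 3 or more. *Atf1* had 1, and *Creb1* and *Crebbp* had none. The stretches that span these core sites are shown because they carry this difference between the NR4A genes and *Creb1*, *Atf1* and *Crebbp*. The difference is not one of the whole CREB family, since no window of *Crem* was read. Core sites are in capitals, and each stretch is read 5′ to 3′ on the strand of its gene. They lie at chr15:101266603-101266820 (plus strand) for *Nr4a1*, chr2:57124100-57124213 (minus strand) for *Nr4a2*, chr4:48045064-48045172 (plus strand) for *Nr4a3*, chr2:167688725-167688922 (plus strand) for *Cebpb* and chr15:100227759-100227783 (plus strand) for *Atf1*.
Nr4a1: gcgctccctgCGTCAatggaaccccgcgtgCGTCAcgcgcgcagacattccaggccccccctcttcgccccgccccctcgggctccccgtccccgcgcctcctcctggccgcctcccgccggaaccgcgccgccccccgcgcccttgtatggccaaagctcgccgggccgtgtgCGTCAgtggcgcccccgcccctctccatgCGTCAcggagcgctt
Nr4a2: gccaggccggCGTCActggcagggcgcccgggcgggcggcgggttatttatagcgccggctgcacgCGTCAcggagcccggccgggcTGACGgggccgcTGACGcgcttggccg
Nr4a3: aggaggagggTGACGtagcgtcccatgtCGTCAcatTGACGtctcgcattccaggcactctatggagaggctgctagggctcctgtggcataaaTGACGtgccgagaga
Cebpb: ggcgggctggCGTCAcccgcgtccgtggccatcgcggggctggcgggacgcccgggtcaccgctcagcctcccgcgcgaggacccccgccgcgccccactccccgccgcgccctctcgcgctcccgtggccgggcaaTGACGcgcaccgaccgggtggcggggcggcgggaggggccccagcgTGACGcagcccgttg
Atf1: gaccacgcggTGACGcagcacgccg
In these stretches the core site nearest to the start was at position -40 in *Nr4a1*, -111 in *Nr4a2*, -147 in *Nr4a3*, -7 in *Cebpb* and -90 in *Atf1*, counted by the first base of the core site. The start used by the table lies inside the gene span for *Nr4a1* (chr15:101253902-101274795), *Nr4a3* (chr4:48045078-48086447) and *Crebbp* (chr16:4081334-4213957). For *Creb1* (chr1:64532794-64604548) it lies inside by a few bases. The NR4A monomer site AAAGGTCA, found in 1.51% of all windows on either strand, and the C/EBP palindrome TTGCGCAA, found in 0.183%, were in none of the 7. A match of letters is a description of the window and not a measured binding site.

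The first question for these genes was whether they were measurable. The array gives each probe a signal intensity and a detection p-value against negative controls, and a probe was taken as above background where that p was under 0.05. Of the 23 probes, 3 were above background on all 6 arrays, namely those of *Nr4a2* and *Cebpb* and 1 of *Crem*. On no array were 11 of them, and 5 were above on a single array. Testing required 3 or more arrays above background out of 6, a condition met by 7 probes of 4 genes, *Nr4a2*, *Crem*, *Creb1* and *Cebpb*. The other 5 genes had no testable probe. Probes of one gene are numbered from the brightest to the dimmest.

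**Figure D1:**
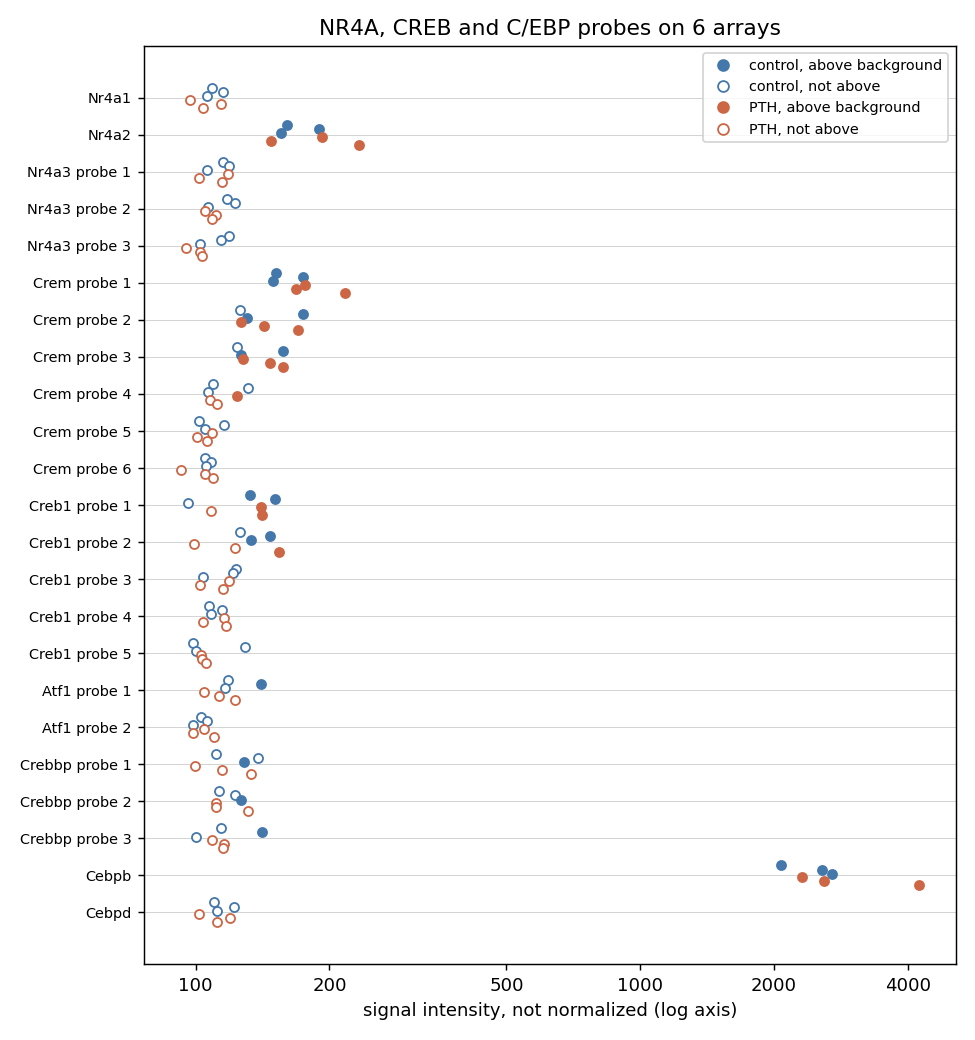
Signal intensity, not normalized and on a log axis, of each of the 23 probes on the 3 control arrays (blue) and the 3 PTH arrays (orange), with filled points above background. The points of *Cebpb*, *Nr4a2* and *Crem* probe 1 are all filled, with *Cebpb* between 2076 and 4231, and 11 probes have no filled point.

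Among the NR4A receptors, only *Nr4a2* was measured. *Nr4a1*, the receptor known as NUR77, had signals of 109, 115 and 106 on control replicates 1 to 3, and of 96.9, 114 and 104 on PTH replicates 1 to 3, the order kept for every gene, with detection p-values from 0.207 to 0.899. *Nr4a3*, known as NOR1, had 3 probes with signals from 94.97 to 122, and its lowest detection p was 0.0919. Neither gene rose above the array background in either group, so no level or fold change is given, and a low amount of transcript was not detectable by these probes.

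*Nr4a2* encodes NURR1, best known for its role in dopamine neurons and also studied in osteoblasts as a gene that PTH induces. Its probe ILMN_1254547 had signals of 160, 190 and 156 in control and of 192, 148 and 234 with PTH. After normalization its log2 signal was 6.28, 6.42 and 6.03 in control and 7.004, 5.84 and 6.60 with PTH. Thus PTH replicates 1 and 3 lay above all control arrays and PTH replicate 2 lay below all of them, and the groups overlapped. The mean was 6.24 ± 0.20 in control and 6.48 ± 0.59 with PTH (SD, n = 3 each). The difference in log2 signal was 0.24 (SE 0.28, 95% interval -0.41 to 0.89, limma, adjusted p = 0.762), so that any change from 0.751-fold to 1.85-fold was within the interval. The difference was -0.026 without PTH replicate 1 and 0.56 without PTH replicate 2.

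*Crem* encodes both activators and the ICER repressors, and it was the gene with the largest difference among those tested here. Its brightest probe, ILMN_1242622, had log2 signals of 6.06, 6.13 and 5.88 in control and of 6.75, 6.27 and 6.40 with PTH. All 3 PTH values lay above all 3 control values. The means were 6.02 ± 0.13 and 6.47 ± 0.25 (SD, n = 3 each), a 1.37-fold difference (0.45 on the log2 scale, SE 0.16, 95% interval 0.08 to 0.82). The unadjusted p was 0.0231 (limma) and the p adjusted over all 16214 probes tested was 0.246, so the gene did not pass the threshold. The interval belongs to the unadjusted p.

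The other probes of *Crem* gave smaller differences. Probe 2 had log2 signals of 5.07, 6.14 and 5.38 in control and of 5.34, 5.70 and 5.72 with PTH, a difference of 0.06 (SE 0.27, limma, adjusted p = 0.946). Probe 3 had 4.97, 5.70 and 5.25 in control and 5.40, 5.82 and 5.50 with PTH, a difference of 0.27 (SE 0.21, limma, adjusted p = 0.624). For both, the groups overlapped and control replicate 1 was not above background. Probe 4 was above background on PTH replicate 1 alone, and probes 5 and 6 on no array. The table does not say which transcripts of *Crem* each probe detects, so activator and repressor forms cannot be told apart.

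**Figure D2:**
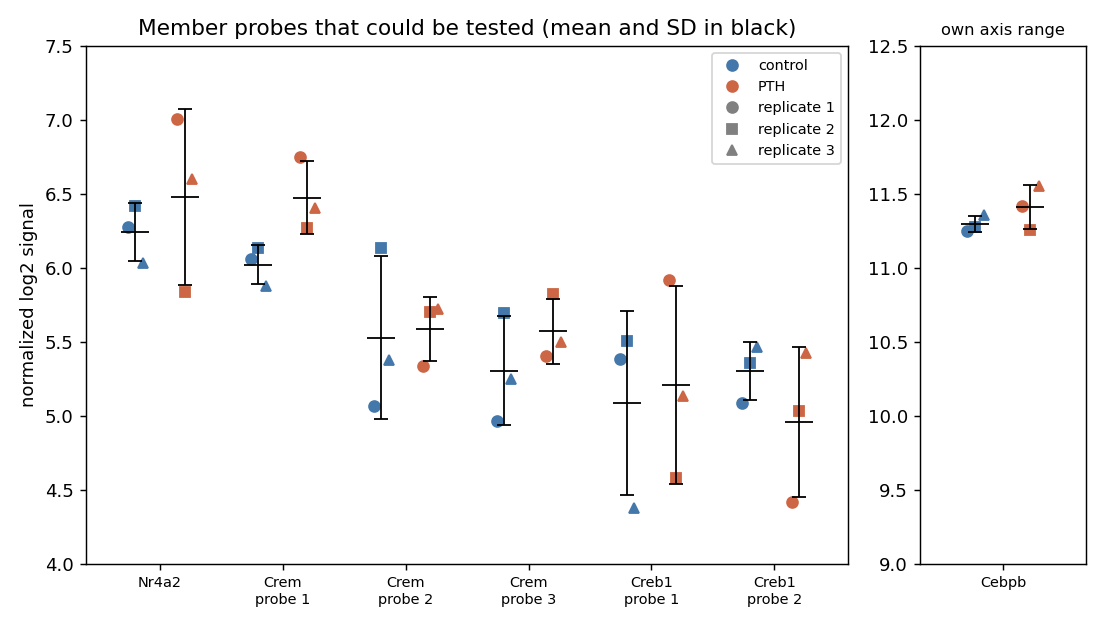
Normalized log2 signal of the 7 tested probes on each control (blue) and PTH (orange) array, with marker shapes for the replicates and the mean and SD in black; *Cebpb* has an axis range of its own with the same span. The PTH points of *Crem* probe 1, from 6.27 to 6.75, all lie above its control points, and the groups overlap for the other 6 probes.

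*Creb1*, the founding factor of the family, was close to background. Its brightest probe, ILMN_3120454, was above background on 2 control and 2 PTH arrays, with log2 signals of 5.39, 5.51 and 4.37 in control and of 5.92, 4.58 and 5.14 with PTH. The difference was 0.12 (SE 0.39, 95% interval -0.79 to 1.03, limma, adjusted p = 0.925), and it turned to -0.23 without control replicate 3 and to -0.24 without PTH replicate 1, and was 0.44 without PTH replicate 2. Probe 2 gave 5.09, 5.36 and 5.46 in control against 4.42, 5.03 and 5.43 with PTH, a difference of -0.34 (SE 0.25, limma, adjusted p = 0.600). The probes of the gene thus differed in sign, each with overlapping groups and an interval that includes 0. Probes 3 to 5 were above background on no array, and neither was the row that carries the older name 3526402H21Rik.

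*Atf1*, which pairs with CREB1, had 1 probe above background on control replicate 2 alone and another on no array. The first had signals of 118, 141 and 116 in control and of 105, 113 and 123 with PTH. *Crebbp* had 3 probes with signals from 99.7 to 141, and each was above background on a single control array and on no PTH array. These genes were not tested.

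*Cebpb* was far above background on all 6 arrays. It encodes a factor of the acute-phase response that also acts in osteoblasts. Signals of its probe, ILMN_2756435, were 2076, 2568 and 2700 in control and 2315, 2588 and 4231 with PTH, and PTH replicate 3 stood apart before normalization. The log2 signals were then 11.25, 11.28 and 11.36 in control and 11.42, 11.26 and 11.55 with PTH. PTH replicate 2 lay among the control arrays, so the groups overlapped. The means were 11.30 ± 0.05 and 11.41 ± 0.15 (SD, n = 3 each) and the difference was 0.12 (SE 0.13, 95% interval -0.18 to 0.41, limma, adjusted p = 0.742). The interval ran from 0.882-fold to 1.33-fold, the narrowest among the 7 probes tested, and a larger change of this transcript at 24 hours lies outside it. *Cebpd*, its close relative, had signals of 110, 122 and 112 in control and of 102, 119 and 112 with PTH and was above background on no array.

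None of the 7 tested probes was called at an adjusted p under 0.05 (limma), against 1.61% of all 16214 probes tested, which were 100 higher and 161 lower with PTH. At an unadjusted p under 0.05 it was 1 of 7, against 14.6% of all probes. The groups did not overlap for 1 of 7, against 20.8% of all probes. With the methods' t-test 1 of 7 passed unadjusted, against 13.9% of all probes, and 0 after Benjamini-Hochberg adjustment, against 0.722%. The median difference of the 7 was 0.12 and of all probes tested 0.0036, and 6 of the 7 were above 0, against 50.6% of all probes tested. The shares called or without overlap were near or below those of all probes. The 7 probes come from 4 genes, and nothing particular to the set is read from these counts. The median SE was 0.16 over all probes tested and 0.21 over the 6816 with a mean log2 signal of at most 6.5, where all probes here but that of *Cebpb* lay.

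**Figure D3:**
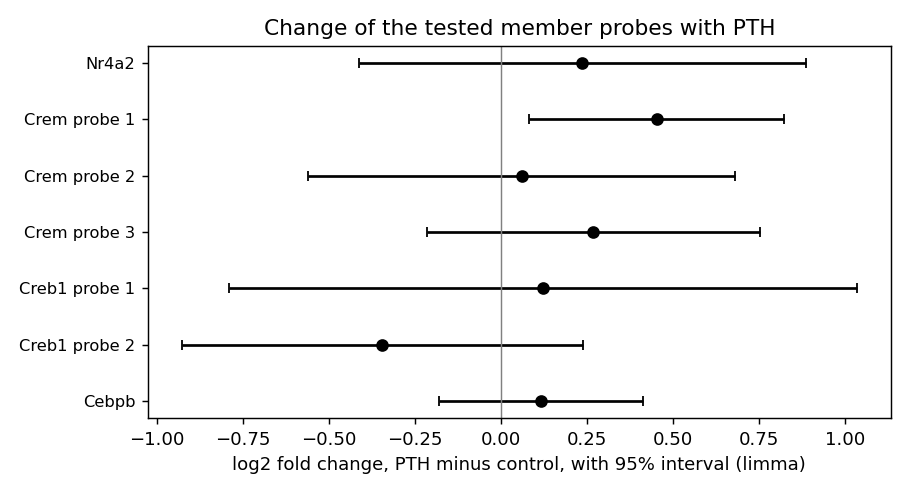
Difference in log2 signal, PTH minus control, of each tested probe (point) with its 95% interval from limma (bar) and a line at 0. The intervals of *Creb1* and *Nr4a2* are the widest by gene, that of *Cebpb* is the narrowest, and only that of *Crem* probe 1, from 0.08 to 0.82, does not include 0.

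The relatives of these genes were next compared, each by its brightest probe, with the gene background of 1.73% called of 11972 genes and a median difference of 0.0054. Of 19 other CREB, ATF and CREB3 factors, 14 were tested, 1 was lower and none was higher with PTH, and their median difference was -0.06. The one that fell was *Atf3*, a stress-induced factor that often acts as a repressor. Its log2 signals were 6.72, 6.29 and 6.29 in control and 5.37, 5.31 and 5.59 with PTH, a difference of -1.01 (SE 0.16, limma, adjusted p = 0.0282). All PTH arrays lay below all control arrays, but the call was lost in each of the 6 fits that left out 1 array, with adjusted p from 0.0671 to 0.107. *Crebl2*, listed under the older name B230205M03, differed by -1.02 (limma, adjusted p = 0.0631), with 3 control arrays but only 1 PTH array above background, so the size of its difference is uncertain. *Batf3*, listed as 9130211I03Rik, was above background on 3 control arrays and on no PTH array, so it entered the test through the control arrays alone. Its control mean was 1.39-fold the bound for PTH, and it did not pass the test (limma, adjusted p = 0.0866). *Jdp2*, a repressor listed as Jundm2, differed by 0.56 (limma, adjusted p = 0.180).

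The coactivators and kinases that control CREB did not pass the test. Of 13, 11 were tested and none was called, with a median difference of 0.20 in log2 signal. *Sik1*, listed as Snf1lk, is itself a cAMP target that keeps the CRTC coactivators out of the nucleus, and it differed by 0.55 (limma, adjusted p = 0.200). *Ep300*, the partner of CREBBP, differed by -0.44 (limma, adjusted p = 0.242). *Sik2* differed by 0.25 (adjusted p = 0.379, limma) and *Crtc1*, listed as AI413414, by 0.27 (adjusted p = 0.501, limma), the latter above background on only 1 control and 2 PTH arrays.

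The rest of the C/EBP family and the partners of the NR4A receptors also gave no call. Of 5 C/EBP genes 3 were tested, with values of -0.50 for *Cebpe*, a granulocyte factor, -0.51 for *Ddit3*, the stress factor CHOP, and -0.18 for *Cebpg* (limma, adjusted p = 0.127, 0.271 and 0.595). *Cebpa* was above background on 2 arrays and was not tested. Of 9 NR4A partners 4 were tested, and the values were -0.20 for the corepressor *Ncor1*, -0.27 and 0.11 for the retinoid receptors *Rxra* and *Rxrb*, with which NR4A1 and NR4A2 can pair, and 0.03 for the coactivator *Ncoa1*. The smallest adjusted p of these 4 was 0.527 (limma). *Rxra* was above background on 2 control arrays and 1 PTH array.

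Known early targets of cAMP had 22 genes, 18 of them tested, of which 2 were called higher and none lower. Their median difference was 0.22, and 13 of the 18 were above 0, against 50.8% of all genes tested. *Rgs2*, which damps signalling through G proteins, had log2 signals of 4.62, 4.89 and 5.00 in control and of 6.22, 6.62 and 6.31 with PTH, a difference of 1.55 (SE 0.16, limma, adjusted p = 0.00578). Its probe passed background on a single control array and on all 3 PTH arrays, so the size of the difference rests on a control level mostly not above background. The call held in all 6 fits that left out 1 array. *Tnfsf11*, which encodes the osteoclast factor RANKL, had 8.21, 8.02 and 8.94 in control and 9.91, 9.65 and 10.09 with PTH, a difference of 1.49 (SE 0.25, limma, adjusted p = 0.0298). For both genes the groups stood apart, although the call of *Tnfsf11* held in only 1 of the 6 fits, the one without control replicate 3 (adjusted p = 0.0144, limma), and reached 0.121 without control replicate 1.

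Of the cAMP targets that were not called, *Dusp1* and *Pde4b* had the smallest adjusted p. *Dusp1*, a phosphatase of MAP kinases, differed by 0.65 (limma, adjusted p = 0.0545), and the cAMP phosphodiesterase *Pde4b* by 0.58 (limma, adjusted p = 0.0780). For both genes, all PTH arrays lay above all control arrays, and groups without overlap were found for 20.8% of all probes tested. *Egr2* and *Cited2* went the other way, with all PTH arrays below all control arrays. They differed by -0.56 and -0.16 (limma, adjusted p = 0.173 and 0.597).

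Of 11 acute-phase genes that C/EBP factors are known to drive, 8 were tested, 2 were lower and none was higher, with a median difference of -0.18. *Lcn2*, an iron-binding protein of neutrophil granules, had log2 signals of 11.26, 11.29 and 11.13 in control and of 10.34, 10.45 and 10.36 with PTH, a difference of -0.84 (SE 0.12, limma, adjusted p = 0.0173). *Hp*, haptoglobin, had 9.02, 8.66 and 8.77 in control and 7.77, 7.99 and 7.73 with PTH, a difference of -0.99 (SE 0.15, limma, adjusted p = 0.0211). Both fell clear of the control arrays, but both calls were lost in each of the 6 fits without 1 array, with adjusted p from 0.0523 to 0.0951. *Cxcl1*, a neutrophil chemokine, differed by 0.68 (limma, adjusted p = 0.0557) and *Saa3* by -0.59 (limma, adjusted p = 0.105).

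**Figure D4:**
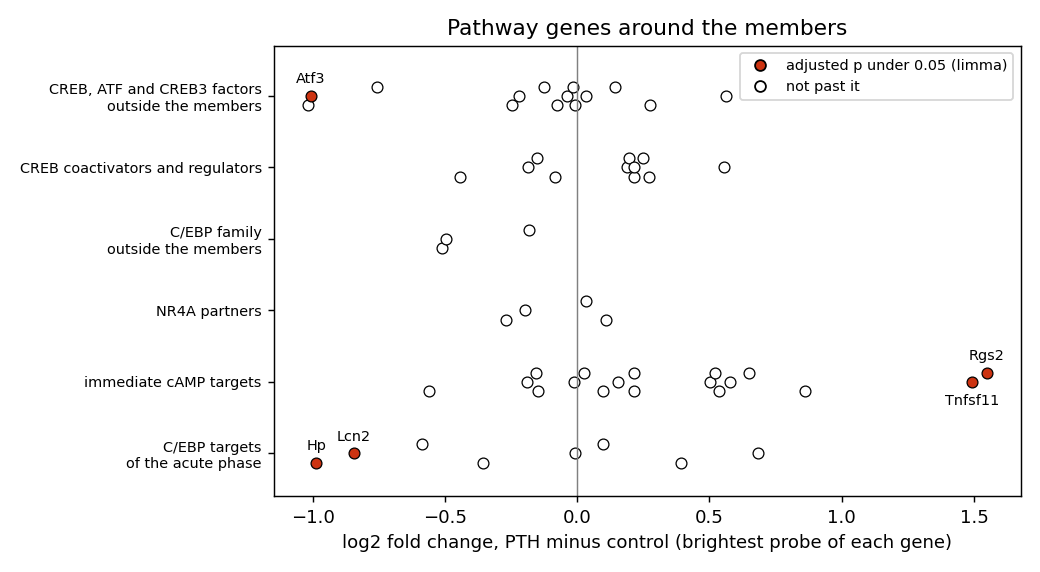
Difference in log2 signal, PTH minus control, of each tested gene (point) in the 6 lists of related genes, with genes at an adjusted p under 0.05 (limma) filled and named. *Rgs2* and *Tnfsf11*, at 1.55 and 1.49, lie to the right, and *Atf3*, *Lcn2* and *Hp*, between -1.01 and -0.84, lie to the left.

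Cell type markers moved with PTH in the same arrays, and fewer cells of a type cannot be told apart here from less RNA per cell. Of 9 tested markers of neutrophils and myeloid cells, *Lcn2* among them, 5 were lower and none higher, and their mean log2 signal was 11.19 to 11.24 in control and 10.47 to 10.62 with PTH. None of those on the array was at background on all arrays. Of 8 macrophage markers none was called, with mean signals of 9.91 to 10.00 and 9.53 to 9.58. Of 11 tested osteocyte and osteoblast markers 3 were lower, with mean signals of 10.75 to 10.96 and 10.04 to 10.27. *Dmp1*, *Mepe* and *Phex*, which define osteocytes, were above background on all 6 arrays, *Sost* on 3 control arrays and 1 PTH array, and *Fgf23* and *Runx2* on none. Of 7 osteoclast markers 3 were higher, with mean signals of 8.73 to 8.84 and 9.37 to 9.41, while *Calcr*, *Ocstamp* and *Atp6v0d2* were above background on no array. Of 3 red cell markers 2 were lower, with mean signals of 9.70 to 9.88 in control and 8.38 to 8.57 with PTH. Of 4 cartilage markers 1 was lower, *Acan*. Its probe was above background on 3 control arrays and 0 PTH arrays, so it entered the test through the control arrays alone. Markers of B lymphocytes, mast cells, muscle, fat and endothelium gave no call. Above background on no array were 6 of 8 markers each of mast cells and of muscle. The part of these shifts in the values of *Cebpb* and the other tested members, and of *Lcn2*, *Hp*, *Atf3*, *Tnfsf11* and *Rgs2*, was not tested.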

How the data were processed

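RNA from 3 control and 3 PTH preparations of bone tubes was labelled with biotin and hybridized by the authors to an Illumina mouse array. The deposited table holds the signal intensity of every probe on a linear scale, neither normalized nor background subtracted, and beside it the detection p-value that the authors obtained from GenomeStudio (version not given in the sources used here). The authors' quantile-normalized values and differential scores were not used here. Median signal was 111 to 129 per array. Probes above background numbered 15758, 16451 and 17369 on control replicates 1 to 3 and 15504, 16352 and 17374 on PTH replicates 1 to 3. Precision is limited by the number of arrays, and 0.1 is the smallest p of an exact permutation test of 3 against 3.

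Signals were corrected by normexp through the detection p-values, given an offset of 16, made equal in their quantiles and expressed as log2 (neqc, limma 3.58.1, R 4.3.3). A probe above background (detection p under 0.05) on at least 3 of 6 arrays was tested by eBayes after lmFit, and p-values were adjusted by Benjamini-Hochberg over the 16214 such probes. Levels were not compared between probes. A gene was represented by its brightest probe. Besides the members, up to 4 genes per related list were named, those with the smallest adjusted p and any under 0.05. *Egr2* and *Cited2* were named in addition, as cAMP targets that lay lower with PTH. The bound for *Batf3* sets the control mean against the PTH mean of, per array, the higher of its own signal and the dimmest signal above background. The members and lists were chosen with earlier results of these data known. Older names were matched through RefSeq (GRCm38.p6), which also gave promoter windows. The procedure was tested on simulated data with differences larger than those of the members. That test does not show whether differences of their size would be found. Slide and scan date were not given, so they were not examined. Alternatives were other background corrections, normalizations, detection filters, the replicate block, Student's t-test and each array left out. Leaving out both arrays numbered 3 was added after the data were seen.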

Additional observations from a re-analysis of the deposited data

How the results depend on the processing

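No tested member probe was called in any alternative (0 in each). Over all probes, the 261 calls became 723 by quantile normalization without background correction, 502 with an offset of 50 and 138 with median scaling. They became 422 with a detection p under 0.01 on all 6 arrays and 117 with Student's t-test. With 1 array left out there were 68 to 106 (lowest without PTH replicate 2). Without both arrays numbered 3, an alternative added after the data were seen, there were 17. Cyclic loess gave 294 and no detection filter 198. Median scaling moved the median of all probes by 0.11 and the share of calls that were higher from 38.3% to 55.8%. With the replicate number as a block there were 64 calls. Deviations of same-numbered arrays from their group means correlated at 0.067, 0.0636 and 0.273. Between the control and PTH arrays numbered 1 and 2 the values were alike, from 0.0636 to 0.073. Arrays numbered 3 correlated with arrays of other numbers of the opposite group at -0.134 to -0.142. Deviations sum to 0 within a group, so these values and the 0.273 are not separate observations. The labels state no pairs, so the main fit took none, although the count of probes above background rose with the replicate number in both groups. Whether the numbers, and above all number 3, mark something shared was not tested.

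*Crem* ranged from 0.20 to 0.55 over 15 alternatives (limma, adjusted p from 0.145 to 0.786, the t-test included) and *Cebpb* from 0.05 to 0.24 (adjusted p from 0.626 to 0.983). *Nr4a2* ranged from -0.026 to 0.56 and was negative without PTH replicate 1 alone. *Creb1* ranged from -0.24 to 0.44 and reversed without control replicate 3 (-0.23), without PTH replicate 1 (-0.24) and without both arrays numbered 3 (-0.17). The strict detection filter left 3 member probes and none of *Creb1*. Of the called genes, *Atf3* passed in 4 of 14 alternatives, *Hp* in 5 of 15, *Lcn2* in 6 of 15, *Tnfsf11* in 7 of 15 and *Rgs2* in 12 of 14. The calls of *Atf3*, *Lcn2* and *Hp* were lost with median scaling (limma, adjusted p = 0.127, 0.418 and 0.168), at differences of -0.89, -0.71 and -0.86, and with the block (adjusted p = 0.0851, 0.0662 and 0.0805), where the differences were those of the fit without it. That of *Rgs2* was lost with the t-test (0.0705) and without both arrays numbered 3 (0.131). The cause was not tested. Probes near background limit what can be seen of all members but *Cebpb*.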
